A study of Mus musculus with 5 samples.

Results

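Heat shock proteins and DNAJ co-chaperones were followed across the cell classes of the mouse dentate gyrus, where cortical input enters the hippocampus. The members are the genes whose symbol begins with Hspa, Hspb, Hspd, Hspe, Hsph or Hsp90 or with Dnaja, Dnajb or Dnajc followed by a number, without pseudogene symbols. There are 72 of them among the 78334 genes listed in all 5 libraries. By family they are 4 DNAJA, 13 DNAJB and 28 DNAJC proteins, 6 cytosolic HSP70 proteins, 2 HSP70 proteins of the endoplasmic reticulum, 1 mitochondrial HSP70, 2 HSPA12 proteins, 3 HSP110 proteins, 3 HSP90 proteins, 3 mitochondrial chaperonin genes and 7 small heat shock proteins. All 72 had counts. Those under 100 counts over the 5 libraries numbered 6, namely Hspb7, Hspb9, Dnajb7, Dnajb8, Dnajc5g and Dnajc22.

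The study asked how the dentate gyrus differs after contextual fear conditioning (CFC), in which mice learn to fear the place where they were shocked. Whole dissociated cells came from wild-type mice, either 14 days past CFC (CFC-14d) or 14 days past random foot shocks (Random-14d), and were freed by collagenase at 37°C and treated to lyse red cells. Nuclei from frozen tissue were sequenced from mice labelled as Csf2rb2 knockout and conditioned 14 days before (KO-CFC), from wild-type mice conditioned 14 days before (WT-CFC) and from untreated wild-type mice (WT-naive). Each group had 10 mice, per the series text, and gave 1 library, so no difference below has a replicate check and no p-value is given. Intervals are 95% and cover counting error only, and levels are counts per 1000000 molecules (CPM), where molecules are unique molecular identifiers (UMIs) summed over a class of cells.

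Chaperones bind proteins that are unfolded or newly made and help them fold, refold or be degraded. HSP70 proteins do this in cycles of ATP hydrolysis: DNAJ proteins bring the client and start the cycle, and nucleotide exchange factors, the HSP110 proteins among them, end it. HSP90 proteins receive many clients from HSP70 and finish kinases and steroid receptors. When unfolded protein accumulates in the cytosol, heat shock factor 1 binds heat shock elements in DNA and raises inducible members such as Hspa1a, Hspa1b, Dnajb1, Hsph1 and Hspb1, while stress in the endoplasmic reticulum raises Hspa5 and Hsp90b1 through another element. Neurons are known for a high threshold of this response, and warming or enzymatic dissociation of brain tissue is known to start it in glia.

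Promoter windows from RefSeq (mouse build GRCm38.p6, from 250 bases before to 50 after each start) were found for 57 of the 72 members. The genes themselves were counted on GRCm39, so coordinates are given for these windows only. The sequences below are shown for 3 members with a heat shock element and 2 with an endoplasmic reticulum stress element that recur in the results, and the members' values did not divide by element throughout. A heat shock element of 3 units, GAANNTTCNNGAA or TTCNNGAANNTTC on either strand, was in 198 of all 32851 windows (0.603%). Among the members it was in those of Hsph1, Dnajb6, Hspd1 and Hspe1, and 285 of the 300 bases of the Hspd1 and Hspe1 windows are the same DNA, so these 2 genes share their matches. The shorter element of 2 units, GAANNTTC or TTCNNGAA, which lies within every 3-unit match, was in 4946 windows (15.1%) and in those of 16 members, Hspa1a and Hspa1b among them. The endoplasmic reticulum stress element, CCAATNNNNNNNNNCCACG or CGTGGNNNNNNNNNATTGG, was in 39 windows (0.119%), of which 3 belonged to the members Hspa5, Hsp90b1 and Dnajc3. A match describes letters only and does not show that a factor binds there. Capitals mark the matches, each line reads 5′ to 3′ on the strand of the gene, and each window of 250 bases ends at the base before the start.
Hspa1a, chr17:34972157-34972406, minus strand, match beginning 104 bases before the start: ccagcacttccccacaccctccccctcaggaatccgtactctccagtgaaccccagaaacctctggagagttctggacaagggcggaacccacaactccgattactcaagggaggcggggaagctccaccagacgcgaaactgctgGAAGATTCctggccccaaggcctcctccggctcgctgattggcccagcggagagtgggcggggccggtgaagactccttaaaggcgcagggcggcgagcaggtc
Hspd1, chr1:55087933-55088182, minus strand, overlapping matches beginning 144 bases before the start: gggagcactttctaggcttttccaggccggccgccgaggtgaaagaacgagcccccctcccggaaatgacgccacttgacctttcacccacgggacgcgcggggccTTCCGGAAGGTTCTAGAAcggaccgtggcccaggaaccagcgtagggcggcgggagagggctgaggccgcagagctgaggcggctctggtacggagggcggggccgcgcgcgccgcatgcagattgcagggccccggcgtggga
Hsph1, chr5:149636279-149636308, minus strand, 30 bases with the match beginning 15 bases after the start: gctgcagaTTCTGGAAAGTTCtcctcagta
Hspa5, chr2:34771840-34772089, plus strand, match beginning 65 bases before the start: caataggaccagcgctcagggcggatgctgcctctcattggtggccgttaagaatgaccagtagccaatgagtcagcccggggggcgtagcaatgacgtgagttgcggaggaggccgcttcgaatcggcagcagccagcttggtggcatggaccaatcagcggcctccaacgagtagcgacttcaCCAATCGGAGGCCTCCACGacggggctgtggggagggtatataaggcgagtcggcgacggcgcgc
Hsp90b1, chr10:86705445-86705694, minus strand, 2 matches, the first beginning 212 bases before the start: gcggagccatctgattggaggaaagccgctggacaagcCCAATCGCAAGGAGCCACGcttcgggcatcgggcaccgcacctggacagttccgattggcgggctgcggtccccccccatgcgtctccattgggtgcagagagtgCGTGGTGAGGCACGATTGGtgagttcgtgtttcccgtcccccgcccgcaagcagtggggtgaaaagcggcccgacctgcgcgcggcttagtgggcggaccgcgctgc

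Hspa1a and Hspa1b, the main inducible HSP70 genes, lie close together and encode near-identical transcripts. Their upstream windows are the same at 247 of 250 positions. How the deposited counts were split between them is therefore uncertain, and their sum is given beside each.

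Libraries held 8395 to 32827 barcodes and 38045642 to 126937815 UMIs, with a median of 1997 to 3988 UMIs per barcode. Members made up 0.947% of all UMIs in CFC-14d, 0.875% in Random-14d, 0.399% in KO-CFC, 0.40% in WT-CFC and 0.322% in WT-naive. Cells were clustered without the member genes and classes named from marker lists, so a name such as microglia means microglia-like throughout; 6 of 38 clusters of cells and 8 of 35 clusters of nuclei stayed unnamed. Choroid plexus markers summed to 17667 to 83193 CPM in the other classes of CFC-14d and 20367 to 77273 CPM in those of Random-14d, and their part in the results was not tested. The library labelled KO-CFC stood apart from the other 2 nuclear libraries. Its title names Csf2rb2 and its genotype tag Csf2rb3, Csf2rb2 RNA was at 9.80 CPM against 17.9 in WT-CFC and 14.4 in WT-naive, and Xist was at 622 CPM against 1.86 and 2.97. It filled clusters of its own among granule neurons, CA3 or CA2 pyramidal neurons and astrocytes and held 215 of 216 T or NK cell-like nuclei. What the Xist difference stands for was not tested. In any comparison with KO-CFC it cannot be told apart from the knockout label. CFC-14d and Random-14d shared 282 cell barcodes, and pairs of nuclear libraries shared 25 to 32. Named clusters that reach 100 barcodes in both libraries of a comparison are also given on their own below, because different clusters can hold a class in 2 libraries.

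Single members were highest in different cell classes. In dissociated cells the inducible HSP70 genes were highest in border-associated macrophages, followed by dendritic cells and microglia, and lowest in astrocytes. Hspa1a and Hspa1b together stood at 513 CPM in CFC-14d and 848 CPM in Random-14d in border-associated macrophages, the macrophages of the meninges and vessel walls, at 394 and 798 CPM in dendritic cells, at 289 and 452 CPM in microglia and at 21 and 31.2 CPM in astrocytes. Dnajb1, the DNAJ partner of inducible HSP70, was highest in microglia at 689 and 724 CPM. Hspa5 (BiP), the HSP70 of the endoplasmic reticulum, was also highest in microglia at 2007 and 1702 CPM, and its DNAJ partners Dnajb9 and Dnajb11 reached 115 and 110 CPM there in CFC-14d. Microglia held the highest Hspa8 in CFC-14d (1365 CPM), the constitutive HSP70, and stood next to border-associated macrophages in Random-14d (1248 and 1303 CPM).

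Other members marked other cells. The cytosolic HSP90 genes were highest in oligodendrocytes, the myelinating cells: Hsp90aa1 stood at 3144 CPM in CFC-14d and 3231 CPM in Random-14d, and Hsp90ab1 at 3991 and 3825 CPM. Hspb1, a small heat shock protein that binds actin, was highest in endothelial cells at 2131 and 2210 CPM, followed by smooth muscle cells at 1707 and 1937 CPM. Hspb2, a small heat shock protein known from muscle, was at 278 and 183 CPM in smooth muscle cells. Dnajb2, a DNAJ protein that steers clients to the proteasome and is known from neurons, was highest in oligodendrocytes here. Its level there was 432 CPM in cells of CFC-14d, 352 in those of Random-14d, and in nuclei 256 in KO-CFC, 373 in WT-CFC and 248 in WT-naive, at least 4 times that of any other class in each of the 5 libraries. Hspa12b, an HSP70-like protein of endothelium, was at 133 CPM in endothelial cells of CFC-14d, 6.73 times the next class, but only 1.72 times the next class in Random-14d. Dnajc6 (auxilin, which uncoats clathrin vesicles) was close to equal in 2 classes of neuronal nuclei of WT-CFC. CA3 or CA2 pyramidal neurons had 313 CPM and mossy cells 304 CPM.

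**Figure D1:**
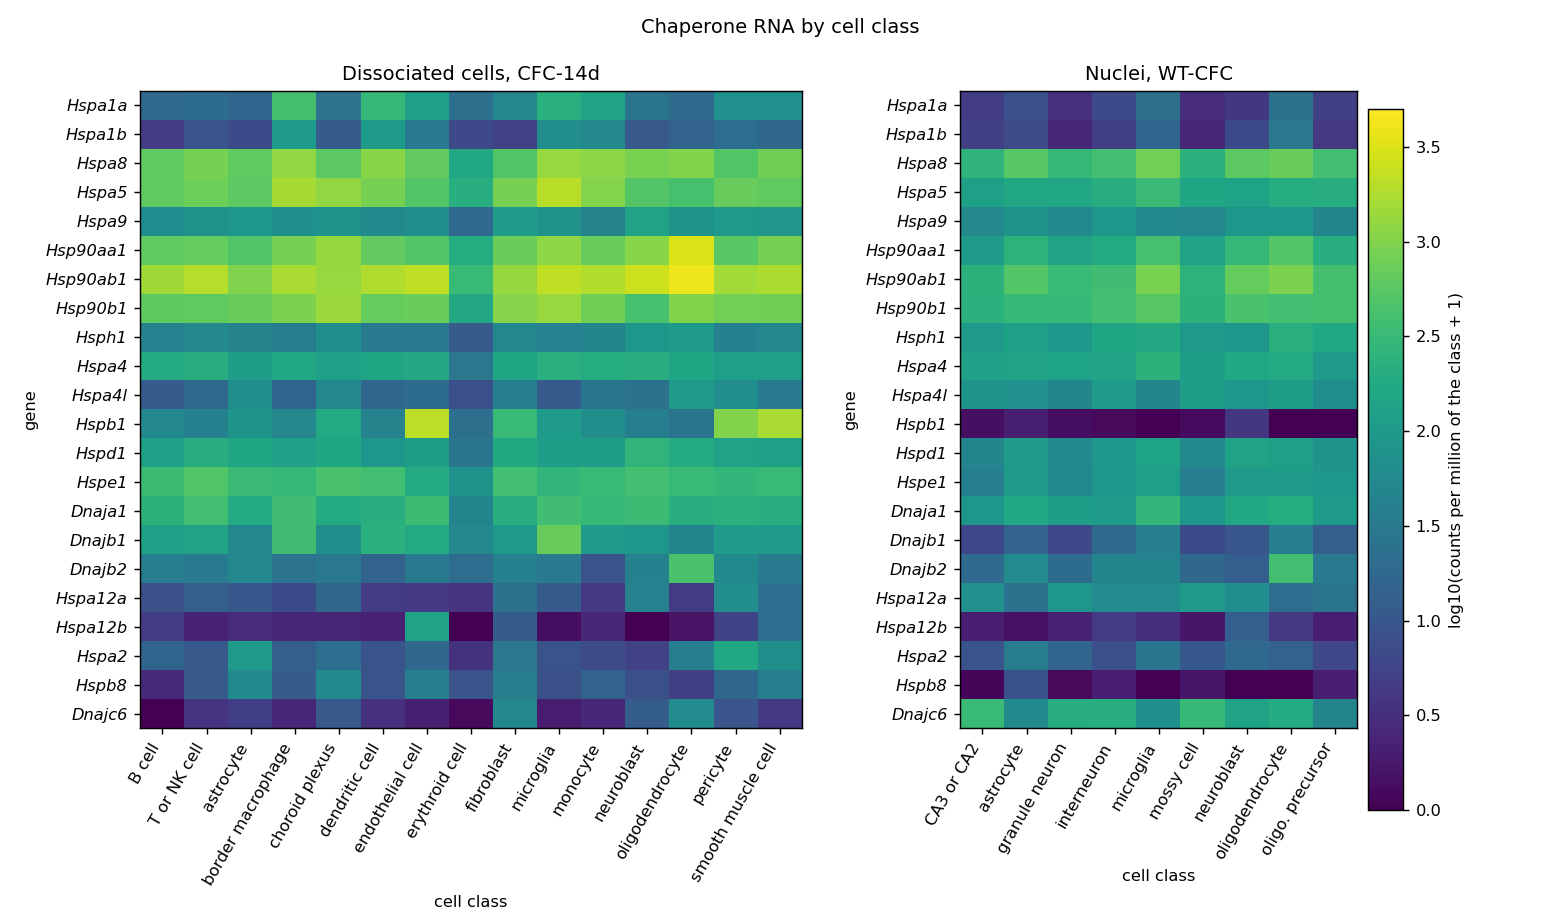
Levels of 22 members (rows) in the 15 cell classes of CFC-14d and the 9 classes of nuclei of WT-CFC, drawn as log10 of CPM plus 1. Hspa1a, Hspa1b and Dnajb1 are bright in macrophages and microglia among cells and darker in every class of nuclei, Hspb1 is brightest in endothelial and smooth muscle cells, and Dnajb2 stands out in oligodendrocytes of both libraries. Levels are to be compared along a row, since counts from transcript ends are not per length.

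After conditioning, the inducible HSP70 genes were lower in CFC-14d than in Random-14d in most classes, and most other members stayed within 1.5-fold. A member is called here when the libraries differ at least 1.5-fold with at least 100 counts over both. Over 15 classes there were 510 measured pairs of a member and a class, of which 22 were lower in CFC-14d and 12 higher. Across all genes 1.77% of such pairs were lower and 5.29% higher. Hspa1a accounted for 6 of the lower pairs, Hspb1 for 7, Hspa1b for 3 and Dnajb1 for 3, and the other 3 were Dnaja1, Dnajb11 and Hsp90aa1. When shares were averaged over barcodes in place of summing UMIs, the split was 26 lower and 27 higher, so the split depends on how cells are weighted. With 15% of barcodes removed by doublet score the lower pairs numbered 9, and with no doublet removal 18 of the 34 pairs were called again.

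Microglia were the class with the most barcodes over both libraries (7443 in CFC-14d and 10342 in Random-14d), and 2 of 59 measured members were called there, both lower, against 0.65% of all genes. Hspa1a stood at 224 CPM (4117 counts) in CFC-14d and 345 CPM (7624 counts) in Random-14d, a log2 ratio of -0.63 (interval -0.68 to -0.57). Hspa1b was at 65.2 and 107 CPM, a log2 ratio of -0.71 (-0.81 to -0.61). The sum of both genes was lower in each of the 4 microglial clusters with enough barcodes, at 263, 378, 123 and 285 CPM in CFC-14d against 453, 559, 217 and 354 CPM in Random-14d. The second of these clusters is led by Icam1, Gem, Il1a, Socs3 and Atf3, genes of inflammatory and immediate early responses. Other heat shock genes of microglia moved less: Hsph1, the inducible HSP110, was at 42.2 and 56.0 CPM, Hsp90aa1, the inducible HSP90, at 1159 and 1493 CPM, and Dnajb1 at 689 and 724 CPM. None of these 3 passed 1.5-fold. Hspa5 (2007 and 1702 CPM) and Hspa8 (1365 and 1248 CPM) had the opposite direction and also stayed within 1.5-fold.

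Over whole classes, border-associated macrophages and dendritic cells showed larger differences in Hspa1a than microglia. In border-associated macrophages 4 of 32 measured members were lower, against 1.16% of all genes. Hspa1a was at 408 CPM in CFC-14d and 703 CPM in Random-14d (log2 -0.79), Dnajb1 at 372 and 610 CPM (-0.71), Hsp90aa1 at 865 and 1345 CPM (-0.64) and Hspb1 at 51.1 and 83.9 CPM (-0.71). In dendritic cells 5 of 26 were lower, against 0.956% of all genes. Hspa1a fell to 291 CPM in CFC-14d, against 642 CPM in Random-14d (log2 -1.14, interval -1.36 to -0.93), beside Hspa1b, Dnaja1, Dnajb11 and Hspb1. The deep cluster of each class gave the same direction with a smaller difference than the class. Hspa1a and Hspa1b together were at 706 and 1035 CPM in the deep border-associated macrophage cluster (whole class 513 and 848 CPM). They were at 447 and 871 CPM in the deep dendritic cell cluster (whole class 394 and 798 CPM). The deep macrophage cluster did not differ by more than every microglial cluster. Dnajb1 in that macrophage cluster was at 494 and 733 CPM, a log2 ratio of -0.57 that stays just within 1.5-fold.

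Over all classes the sum of Hspa1a and Hspa1b was lower in CFC-14d in 13 of 15. These 13 include astrocytes, oligodendrocytes, erythroid cells, T or NK cells and B cells, whose low levels are taken up below. Endothelial cells had 164 and 245 CPM (log2 -0.58), pericytes 94.9 and 139 CPM (-0.55), monocytes 200.4 and 289 CPM (-0.53), and smooth muscle cells 90.3 and 157 CPM (-0.79). The exceptions were fibroblasts, at 54.5 and 40.4 CPM from 25 and 26 counts, and choroid plexus epithelial cells, the cells that make cerebrospinal fluid, at 36.0 and 32.0 CPM. The choroid class holds 1 shallow cluster of 6117 barcodes of CFC-14d and 212 of Random-14d. Within its 3 large clusters the sum was lower in CFC-14d, at 90.8, 24.2 and 12.5 CPM against 129, 31.7 and 18.3 CPM in Random-14d. Over all named clusters with at least 100 counts, the sum was below 0 on the log2 scale in 16 of 16, between -1.33 and -0.12, and 5 of these passed 1.5-fold.

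Background RNA may bear on the low end of these levels. With each barcode thinned to 1000 UMIs, 17.3% of microglia in CFC-14d (1256 of 7245, with 198 shallower left out) and 24.5% in Random-14d (2467 of 10087, with 255 left out) had a UMI of Hspa1a or Hspa1b. Without thinning the shares were 29.0% and 35.3%. In erythroid cells, which should hold little of this RNA, the thinned shares were 2.70% and 4.28%, with median depths of 7265 and 7314 UMIs against 2364 and 2012 in microglia. Border-associated macrophages had 25.6% and 41.7%, and dendritic cells 22.2% and 43.6%. Astrocytes (1.44% and 2.28%) lay below the erythroid share. Oligodendrocytes (3.39% and 5.02%) and T or NK cells (3.63% and 4.35%) lay slightly above it. B cells (2.09% and 5.32%) lay below it in CFC-14d and above it in Random-14d. Levels in these classes, the Hspa1a value of oligodendrocytes (18.5 and 49.4 CPM) included, are therefore not taken as expression by these cells. The part of background RNA in them was not tested.

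**Figure D2:**
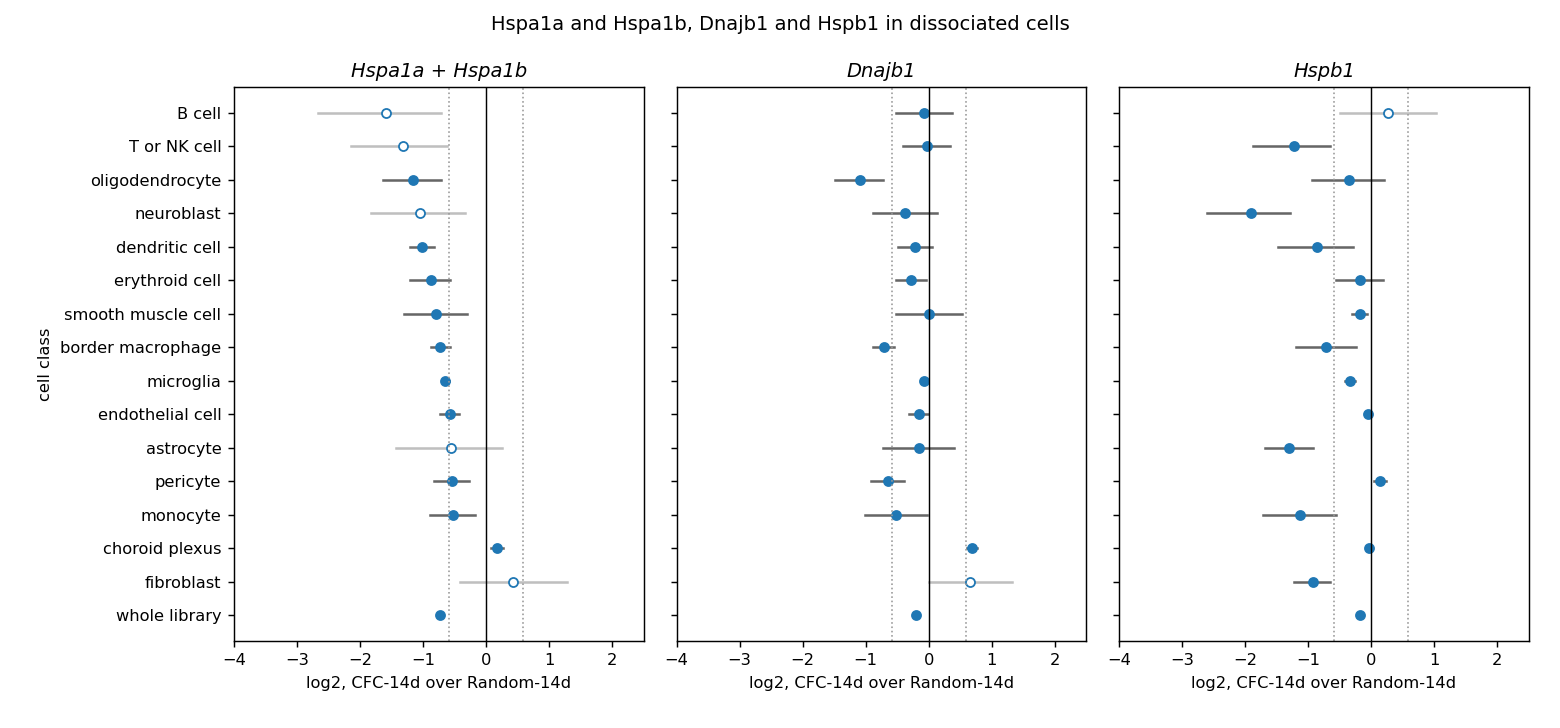
Log2 of CFC-14d over Random-14d for Hspa1a plus Hspa1b, Dnajb1 and Hspb1 in each class of dissociated cells, with bars for the 95% counting interval, open points for values from under 100 counts and dotted lines at 1.5-fold. The HSP70 sum lies left of 0 in 13 of 15 classes, Dnajb1 lies near 0 in microglia and right of 1.5-fold in choroid plexus epithelial cells, and Hspb1 is near 0 in the endothelial and smooth muscle cells where it is highest.

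Dnajb1 changed in 4 classes, and in both directions. It rose in choroid plexus epithelial cells (66.0 CPM in CFC-14d, 41.1 in Random-14d, log2 0.68) and fell in border-associated macrophages, pericytes (106 and 166 CPM, -0.65) and oligodendrocytes (46.2 and 98.7 CPM, -1.09). The choroid value followed the shallow cluster, where it was at 170 and 111 CPM, since the other 2 large clusters had 41.4 and 40.6 CPM and 35.7 and 33.8 CPM. In pericytes the main cluster had 71.3 and 72.9 CPM, and in the main oligodendrocyte cluster Dnajb1 was at 46.2 and 63.4 CPM (log2 -0.45). With no doublet removal the log2 ratio was -0.28 in pericytes, -0.39 in oligodendrocytes and -0.48 in border-associated macrophages.

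Hspb1 differed in classes with lower levels than those of the vessel wall. It was at 2131 and 2210 CPM in endothelial cells and 989 and 897 CPM in pericytes of CFC-14d and Random-14d, within 1.5-fold. It fell in 7 classes, for example neuroblasts (38.0 and 145 CPM, log2 -1.91) and astrocytes (80.1 and 198 CPM, -1.30). Endothelial marker RNA in the same classes summed to 88.7 CPM in CFC-14d and 875 CPM in Random-14d in neuroblasts and to 179 and 586 CPM in astrocytes. It was also lower in CFC-14d in T or NK cells (293 and 624), fibroblasts (264 and 464), dendritic cells (85.8 and 135) and border-associated macrophages (241 and 294), and higher in monocytes (593 and 478). All 11 endothelial markers were detected in the astrocytes of both libraries, with Kdr and Vwf at 0 in neuroblasts of CFC-14d. The part of this RNA in the Hspb1 values was not tested.

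Higher levels in CFC-14d were few and scattered over families. Choroid plexus epithelial cells had 4 of 64 measured members higher, against 16.9% of all genes, so the share of members was below that of the background. They were Dnajb1, Dnajb5 (1.81 and 1.09 CPM), Hspa12b (1.52 and 0.759 CPM) and Hspb3 (2.69 and 0.903 CPM), the last 3 at very low levels. Microglial markers summed to 2123 CPM in choroid cells of CFC-14d and 619 CPM in those of Random-14d, and Hspb3 stood at 51.4 and 59.0 CPM in microglia. Oligodendrocytes had 2 of 45 higher, against 1.36% of all genes: Hspa2 at 38.7 and 21.9 CPM and Hspa14, a ribosome-associated HSP70, at 45.6 and 28.8 CPM. In the same cells 2 of 45 were lower, Hspa1a and Dnajb1, against 2.34% of all genes. Smooth muscle cells had 2 of 23 higher (Hspb2 and Hspe1) against 11.3% and 1 of 23 lower (Hspa1a) against 16.1%. The remaining 4 higher pairs were Dnaja2 in fibroblasts (155 and 101 CPM) and monocytes (149 and 80.4 CPM), Dnajb9 in astrocytes (76.3 and 39.9 CPM, log2 0.93) and Dnajc7 in B cells (491 and 325 CPM).

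Hspa5 and Hspa8 leaned the other way without passing 1.5-fold. Hspa5 was above 0 in 15 of 15 classes (log2 0.04 to 0.57) and Hspa8 in 13 of 15. Within named clusters Hspa8 was above 0 in 24 of 24 (0.03 to 0.47) and Hspa5 in 23 of 24, while Hsp90aa1 was below 0 in 17 of 24. The median log2 ratio of all genes was itself above 0 in several classes, at 0.24 in choroid plexus epithelial cells, 0.13 in B cells and 0.11 in erythroid cells. Haemoglobin made up 4.53% of the RNA counted in CFC-14d, against 8.52% in Random-14d, and 41 of 60 measured haemoglobin pairs were lower in CFC-14d. Among other genes of the pathway, to be read against 5.29% of all pairs higher and 1.77% lower, cytosolic chaperonin (TRiC) subunits were higher in 7 and lower in 0 of 116 pairs. HSP90 co-chaperones were higher in 4 and lower in 0 of 120, and exchange factors of HSP70 higher in 2 and lower in 0 of 94. Folding genes of the endoplasmic reticulum were higher in 4 and lower in 0 of 161. The immediate early genes, which dissociation can raise, were higher in 14 and lower in 11 of 192, and in microglia they summed to 30056 CPM in CFC-14d and 28430 CPM in Random-14d.

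Within single microglia, inducible members went together. Microglia with a UMI of Hspa1a or Hspa1b held more of other inducible members than those without, at equal depth. Hsph1 was 1.64 times as high in CFC-14d and 2.31 times in Random-14d, Dnajb1 1.63 and 1.85 times, Hsp90aa1 1.67 and 1.66 times, Hspb1 1.87 and 1.63 times and Dnaja1 1.63 and 1.59 times. Hsp90ab1 (1.42 and 1.5) and Hspa8 (1.4 and 1.38) followed. Hspa5 (1.14 and 1.08), Hsp90b1 (0.99 and 1.0) and the mitochondrial chaperonin Hspd1 (1.07 and 1.13) were near 1, as was the sum of the immediate early genes (1.16 and 1.14). Members at least 1.5 times as high numbered 5 of 47 measured in CFC-14d and 7 of 49 in Random-14d, against 0.711% of 7880 genes and 0.559% of 8759 genes. These are descriptions within a library, since cells of 1 library are not replicates.

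**Figure D3:**
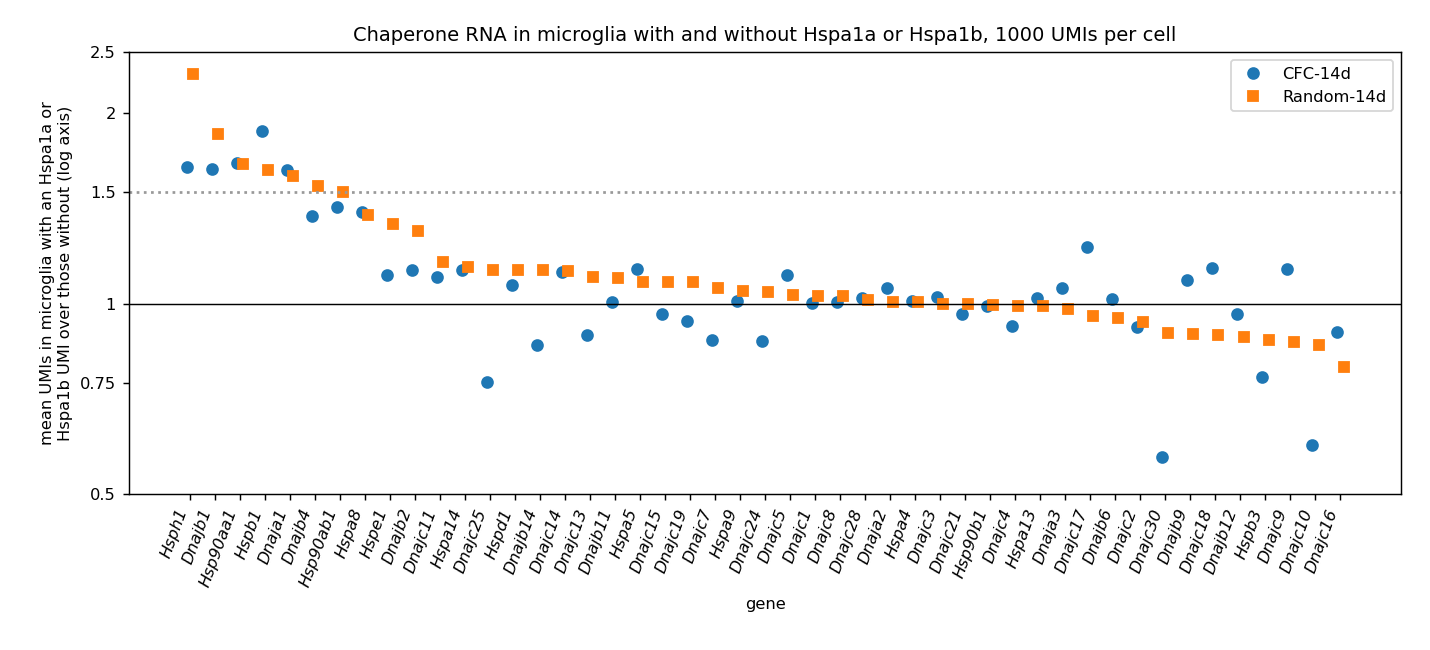
Ratio of mean UMIs in microglia with an Hspa1a or Hspa1b UMI to those without (log axis), for members in CFC-14d (circles) and Random-14d (squares), each barcode thinned to 1000 UMIs. The inducible members Hsph1, Dnajb1, Hsp90aa1, Hspb1 and Dnaja1 lie at 1.59 or above in both libraries, and Hsp90b1 lies at 0.99 and 1.0.

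In nuclei, members were higher in WT-CFC than in WT-naive, with Hsph1, Dnaja1 and Hspd1 past 1.5-fold in the most classes. Over 9 classes 29 of 307 measured pairs were higher in WT-CFC, against 3.47% of all genes, and 1 was lower, against 2.7%. Over whole libraries 10 of 59 members were higher and none lower, against 3.62% of all genes higher. These 10 were Hsph1, Dnaja1, Dnaja4, Dnajb1, Dnajb2, Hspa1a, Hspa1b, Hsp90aa1, Hspd1 and Hspe1, and 50 of 59 lay above the median of all genes. Of the median log2 ratios of all genes by class, that of oligodendrocytes was the furthest from 0, at 0.14.

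Hsph1, the HSP110 that releases nucleotide from inducible HSP70, rose in 5 of 9 classes. Interneurons, the inhibitory neurons, had 150 CPM in WT-CFC and 49.2 CPM in WT-naive, a log2 ratio of 1.61 (interval 1.36 to 1.87) from 576 and 165 counts. CA3 or CA2 pyramidal neurons had 101 and 52.5 CPM (0.94), mossy cells, the excitatory neurons of the hilus, 96.7 and 54.7 CPM (0.82, and 0.58 with 15% of barcodes removed by doublet score), oligodendrocyte precursors 163 and 92.9 CPM (0.80) and oligodendrocytes 220 and 129 CPM (0.77). Granule neurons, the principal cells of the dentate gyrus, had 94.1 and 64.5 CPM (0.54), within 1.5-fold. Astrocytes (129 and 125 CPM), microglia (168 and 154 CPM) and neuroblasts (91.2 and 101 CPM) were close to equal. Within named clusters Hsph1 was above 0 in 12 of 13, and 8 passed 1.5-fold.

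Dnaja1, a DNAJ partner of Hspa8, was above 0 in 9 of 9 classes and rose in 5. Microglia had 279 CPM in WT-CFC and 117 CPM in WT-naive (log2 1.24, interval 0.77 to 1.76) from 136 and 48 counts, oligodendrocytes 195 and 108 CPM (0.85), and mossy cells 89.8 and 50.2 CPM (0.84). The mitochondrial chaperonin moved with it: Hspd1 (HSP60) was above 0 in 8 of 8 measured classes and rose in 4, among them oligodendrocytes (127 and 66.0 CPM, 0.94) and mossy cells (56.8 and 33.7 CPM, 0.75). Its partner Hspe1 (HSP10), which shares its promoter, rose in interneurons (89.4 and 52.5 CPM, 0.77). Within named clusters Dnaja1 was above 0 in 12 of 12, Hspd1 in 11 of 11, Hspe1 in 11 of 11 and Hsp90ab1 in 13 of 13.

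By class, interneurons had 7 of 42 members higher, against 3.28% of all genes, and the others besides those named were Hsp90b1 (387 and 249 CPM, log2 0.64), Dnajb9 and Dnajb12. CA3 or CA2 pyramidal neurons had 5 of 54, against 1.81%, with Dnaja4 (13.5 and 8.78 CPM), Dnajb1 (5.38 and 3.01 CPM) and Hspa1a (3.77 and 2.22 CPM) beside Hsph1 and Hspd1. Mossy cells had 5 of 47, against 3.02%, with Hsp90aa1 at 137 and 82.6 CPM (0.73) and Dnajb9 at 14.4 and 9.19 CPM. They held the 1 lower pair, Dnajc12 at 12.9 and 22.8 CPM (-0.82). Oligodendrocytes had 6 of 30, against 11.3%, with Hspa4l at 118 and 63.7 CPM, the mitochondrial HSP70 Hspa9 at 90.1 and 53.3 CPM and Dnajb2 at 373 and 248 CPM. Astrocytes had 1 of 35, against 5.90%, namely Dnaja3 at 39.5 and 18.1 CPM (1.11). Granule neurons had 0 of 49, against 1.88%. The members nearest to 1.5-fold there were Dnaja4 (19.2 and 12.8 CPM, 0.58) and Hsph1 (0.54).

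Inducible HSP70 was scarce in nuclei. Hspa1a and Hspa1b together had 579 counts in WT-CFC and 266 in WT-naive over whole libraries, 10.6 and 4.85 CPM (log2 1.12, interval 0.91 to 1.34). Their sum was above 0 in 9 of 9 classes, mostly on few counts. Oligodendrocytes had 69 and 7 counts, 52.7 and 8.11 CPM (2.61, 1.58 to 4.07), and CA3 or CA2 pyramidal neurons 189 and 148 counts, 7.76 and 5.06 CPM (0.62, 0.30 to 0.94). The granule neuron, mossy cell, neuroblast, astrocyte and precursor values had intervals that include 0. Hspa5 stood apart from the cytosolic members, above 0 in 4 of 9 classes and between -0.57 and 0.28.

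Values that moved with these results were not confined to the family. Mir6236, annotated as a microRNA, stood at 157 CPM in WT-CFC and 50.5 CPM in WT-naive and was higher in WT-CFC in all 9 classes (306 and 157 CPM in astrocytes, 65.4 and 40.2 CPM in interneurons). It led an unnamed cluster of 4531 nuclei of WT-CFC and 1431 of WT-naive with a median of 575 UMIs, where Hsph1 stood at 470 and 276 CPM and Dnaja1 at 476 and 278 CPM. Unnamed clusters held 40.1% of the nuclei of WT-CFC and 18.4% of those of WT-naive. Mitochondrial RNA took 0.57% and 0.43% of UMIs. The part of these in the results was not tested. Among other genes of the pathway, to be read against 3.47% of all pairs higher and 2.7% lower, HSP90 co-chaperones were higher in 9 and lower in 0 of 77 pairs, TRiC subunits higher in 5 and lower in 0 of 49 and exchange factors higher in 3 and lower in 0 of 54. Folding genes of the endoplasmic reticulum were higher in 4 and lower in 0 of 81. In oligodendrocytes 4 of 10 HSP90 co-chaperones were higher, for example Cdc37, which brings kinases to HSP90, at 67.9 and 26.6 CPM. Hsf1, heat shock factor 1 itself, was at 22.8 and 20.4 CPM over whole libraries.

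**Figure D4:**
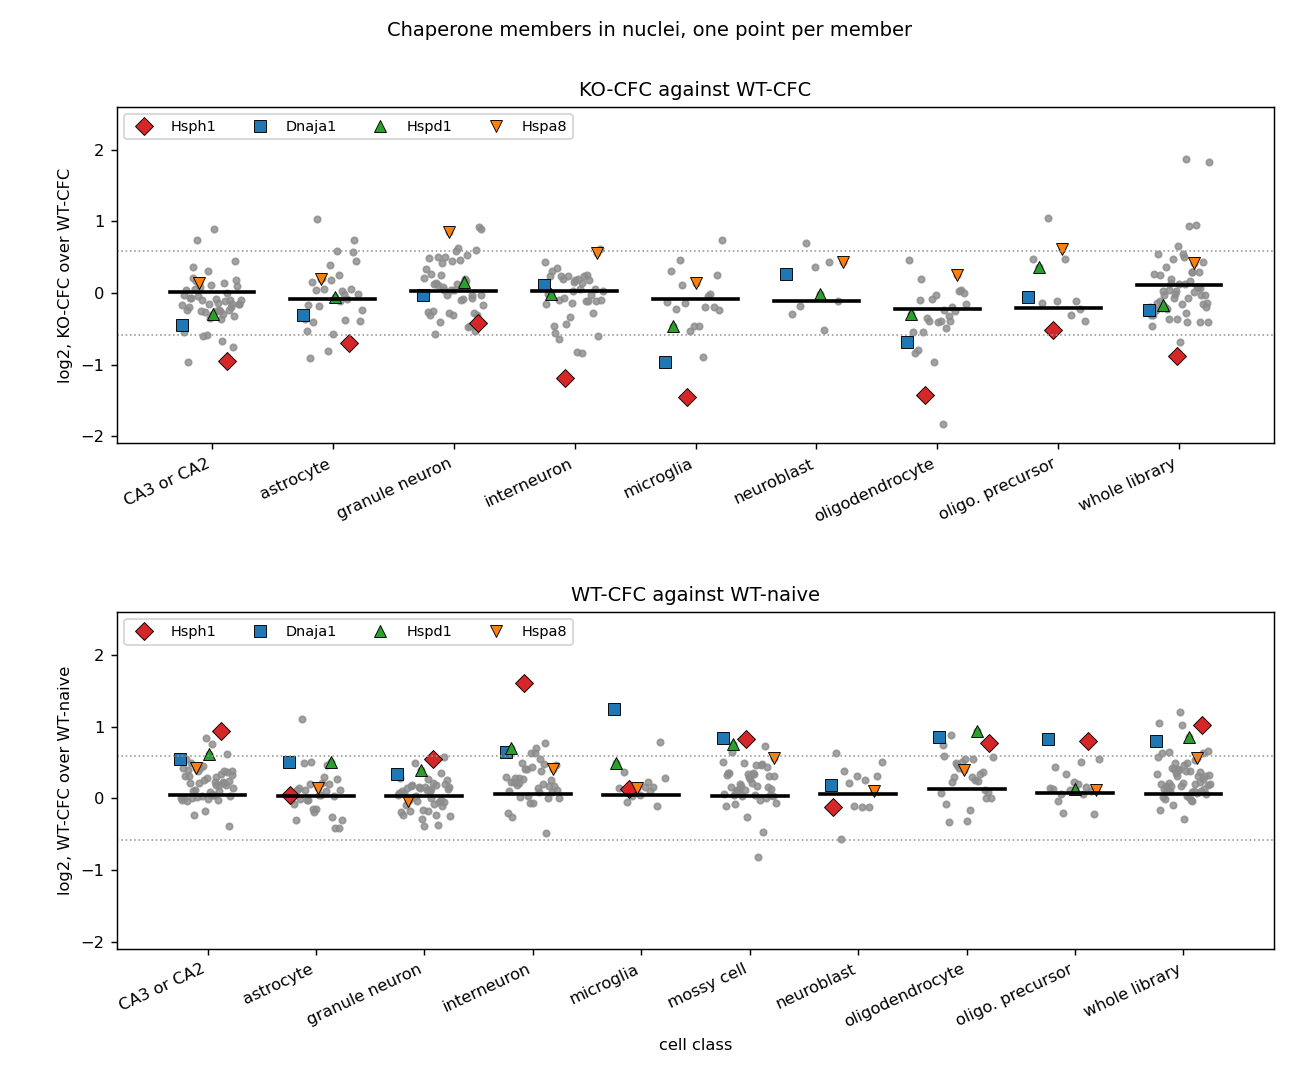
Log2 ratios of every measured member in each class of nuclei, for KO-CFC over WT-CFC (top) and WT-CFC over WT-naive (bottom), with black bars for the median of all genes and dotted lines at 1.5-fold. In the lower panel Hsph1 is at 1.61 in interneurons and Dnaja1 at 1.24 in microglia, and in the upper panel Hsph1 lies below 0 in 7 of 7 classes measured and Hspa8 above 0 in 8 of 8.

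Against WT-CFC, the library labelled KO-CFC was lower in the HSP110 genes Hsph1 and Hspa4l and higher in Hspa8 and in the third HSP110 gene, Hspa4. This comparison shares its WT-CFC library with the last, so a low or high value there moves both. WT-naive values therefore stand beside those of most members named by class. Over 8 classes 22 of 253 measured pairs were lower in KO-CFC, against 8.81% of all genes, and 15 were higher, against 12.3%. The share of members lower was thus close to the background and the share higher was below it. When shares were averaged over barcodes, 31 pairs were lower and 13 higher. Over clusters that both libraries fill, 15 pairs were lower and 5 higher. Mossy cells had under 100 nuclei in KO-CFC and were not compared. Of the medians of all genes, those of oligodendrocytes (-0.22), oligodendrocyte precursors (-0.21), neuroblasts (-0.11) and whole libraries (0.11) lay over 0.1 from 0.

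Hsph1 was below 0 in 7 of 7 measured classes and fell in 5. Interneurons had 65.5 CPM in KO-CFC, 150 in WT-CFC and 49.2 in WT-naive (log2 of KO-CFC over WT-CFC -1.19, interval -1.49 to -0.91). CA3 or CA2 pyramidal neurons had 51.8, 101 and 52.5 CPM (-0.96), and oligodendrocytes 81.4, 220 and 129 CPM (-1.42). Microglia had 61.5, 168 and 154 CPM (-1.45) and astrocytes 78.6, 129 and 125 CPM (-0.71), so in these 2 glial classes KO-CFC was below both wild-type libraries. Granule neurons (70.6, 94.1 and 64.5 CPM) and oligodendrocyte precursors (113, 163 and 92.9 CPM) stayed within 1.5-fold between KO-CFC and WT-CFC. Within named clusters that both libraries fill, Hsph1 was below 0 in 5 of 5, between -1.66 and -0.51.

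Hspa4l, another HSP110, was below 0 in 5 of 5 measured classes and fell in oligodendrocytes (32.5, 118 and 63.7 CPM in KO-CFC, WT-CFC and WT-naive, log2 -1.83) and interneurons (58.8, 106 and 72.4 CPM, -0.84). The third HSP110, Hspa4, had the opposite direction, rising in granule neurons (212, 138 and 134 CPM, 0.62) and oligodendrocyte precursors (195, 95.2 and 91.5 CPM, 1.04). Hspa8 was above 0 in 8 of 8 classes and in 6 of 6 shared clusters. It rose in granule neurons (515, 286 and 293 CPM, 0.85, interval 0.78 to 0.92) and oligodendrocyte precursors (603, 395 and 365 CPM, 0.61), and stood at 586, 398 and 299.6 CPM in interneurons.

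**Figure D5:**
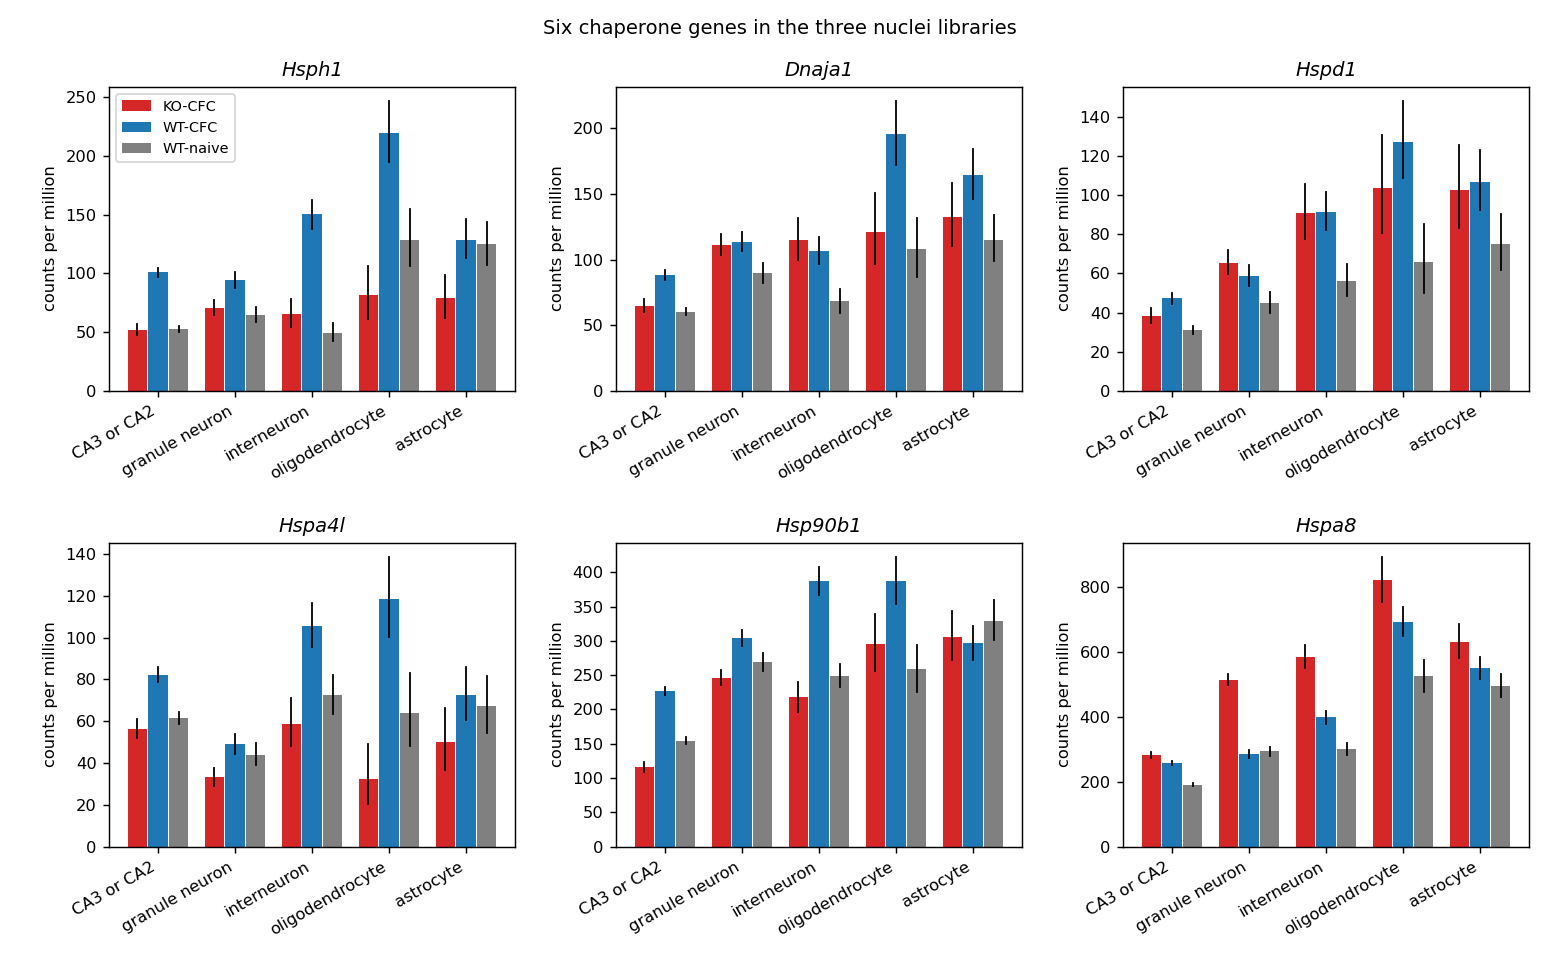
Levels of Hsph1, Dnaja1, Hspd1, Hspa4l, Hsp90b1 and Hspa8 in 5 classes of nuclei, in CPM with 95% counting intervals, for KO-CFC (red), WT-CFC (blue) and WT-naive (grey). The Hsph1 bar of WT-CFC is the tallest of the 3 in each class drawn, while Hspa8 of granule neurons is at 515 CPM in KO-CFC beside 286 and 293 CPM in the wild-type libraries.

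Hsp90b1 and Hspa5 were lower in KO-CFC than in WT-CFC in CA3 or CA2 pyramidal neurons and interneurons. In CA3 or CA2 pyramidal neurons Hsp90b1 (GRP94), the HSP90 of the endoplasmic reticulum, stood at 116 CPM in KO-CFC, 226 in WT-CFC and 155 in WT-naive. Its log2 ratio of KO-CFC over WT-CFC was -0.96. In interneurons it stood at 218, 387 and 249 CPM (-0.83). Hspa5, in the same order of libraries, stood at 78.1, 124 and 109 CPM (-0.66) in CA3 or CA2 pyramidal neurons. It stood at 128, 200.4 and 165 CPM (-0.65) in interneurons. The Hspa5 ratio of CA3 or CA2 pyramidal neurons was at -0.33 with no doublet removal and -0.43 with at least 1000 UMIs per barcode. In neuroblasts Hspa5 was at 226 CPM in KO-CFC, against 138 CPM in WT-CFC (0.70, 0.19 to 1.24), on 99 and 47 counts. Neuroblasts of WT-naive had 207 CPM. In granule neurons neither passed 1.5-fold, with Hspa5 at 154 and 157 CPM and Hsp90b1 at 246 and 304 CPM. Dnajc3, the other member with the stress element and an HSP70 partner in that compartment, stood at 42.4 and 39.6 CPM in CA3 or CA2 pyramidal neurons and at 57.7 and 45.3 CPM in interneurons, within 1.5-fold. In CA3 or CA2 pyramidal neurons 5 of 13 other folding genes of that compartment were lower, against 4.79% of all genes, with Calr (52.6 and 96.7 CPM), Canx (97.9 and 164 CPM) and Pdia4 (21.4 and 43.9 CPM) among them. CA3 or CA2 nuclei of KO-CFC came mostly from 1 cluster (965 nuclei, 12 of WT-CFC) and those of WT-CFC from another (1733 nuclei, 66 of KO-CFC). Cluster and library can therefore not be told apart in that class, nor in granule neurons (1471 and 3 nuclei in 1 cluster, 59 and 1382 in another) and astrocytes (405 and 9, 62 and 741). Interneurons and oligodendrocytes were filled by shared clusters, where Hsp90b1 was below 0 in 6 of 6 and Hspa5 in 5 of 6 over all such clusters.

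By class, 3 values in a row below are those of KO-CFC, WT-CFC and WT-naive. CA3 or CA2 pyramidal neurons had 5 of 54 members lower in KO-CFC than in WT-CFC, against the same 4.79% of all genes. They were Dnaja4 (7.93, 13.5 and 8.78 CPM) and Dnajc16 (18.9, 28.8 and 21.5 CPM) beside Hsph1, Hsp90b1 and Hspa5. Interneurons had 5 of 42 lower, also against 4.79%, with Dnajc16 (13.9, 21.4 and 21.2 CPM). The interval of Dnajc16, -1.33 to 0.04, includes 0, and it was named after its value was seen. Higher in interneurons was 1 of 42, against 14.0% of all genes. It was Hsp90ab1, at 570, 373 and 270 CPM (log2 0.61, interval 0.50 to 0.73). Oligodendrocytes had 6 of 29 lower, against 19.9%: Hsp90aa1 (289, 515 and 408 CPM), Dnaja1 (121, 195 and 108 CPM), Hspa9 (45.9, 90.1 and 53.3 CPM) and Dnajc18 besides Hsph1 and Hspa4l. Microglia had 3 of 21 lower, against 17%: Hsph1, Dnaja1 (143, 279 and 117 CPM) and Dnaja2 (77.4, 144 and 122 CPM). Higher in microglia was 1 of 21, against 16.7%, namely Dnajc3 (121, 71.9 and 105 CPM). Granule neurons had 5 of 51 higher, against 14.3%: Hspa8, Hspa4, Hsp90ab1 (477, 315 and 315 CPM, 0.60), Hspa2 (28.2, 15.1 and 17.8 CPM) and Dnajc30 (15.8, 8.33 and 8.22 CPM). Astrocytes had 3 higher (Dnajb11, Dnajb12 and Dnajc10) of 33, against 12.5% of all genes, and 3 lower (Hsph1, Dnajc6 and Dnajc18), against 13.4%. In CA3 or CA2 pyramidal neurons 2 of 54 were higher, against 10.1% of all genes: Dnajc9 (6.50, 3.90 and 4.58 CPM) and Dnajc30. Dnajc30, a DNAJ protein of mitochondria, was at 9.05, 4.88 and 4.61 CPM there (0.89). Its direction turned (-0.71) when nuclei with over 1% mitochondrial UMIs were left out.

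Hspa1a and Hspa1b together were scarce in KO-CFC too, with 288 counts and 9.02 CPM over the whole library, against 579 counts and 10.6 CPM in WT-CFC. Granule neurons had 59 and 32 counts (8.2 and 3.75 CPM), CA3 or CA2 pyramidal neurons 81 and 189 counts (8.23 and 7.76 CPM) and oligodendrocytes 13 and 69 counts (19.2 and 52.7 CPM).

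Over whole libraries 5 of 60 measured members were higher in KO-CFC, against 19.2% of all genes, and 2 were lower, against 5.43%. Of the small heat shock proteins, Hspb1 was at 7.39 CPM in KO-CFC and 2.08 in WT-CFC (236 and 114 counts). Hspb8 was at 2.29 and 0.621 CPM (73 and 34 counts). The others had at most 71 counts in KO-CFC and 24 in WT-CFC before filters, and no class had 100 counts of Hspb1. Microglial markers summed to 550 CPM in oligodendrocytes, 403 in astrocytes and 250 in interneurons of KO-CFC, against 157, 104 and 84.4 CPM in WT-CFC, with all 10 detected in oligodendrocytes and astrocytes of both libraries. Immediate early genes were higher in 6 and lower in 2 of 15 pairs, against 12.3% and 8.81% of all pairs. One of them, Atf3, stood at 2.88 CPM in KO-CFC and 0.219 CPM in WT-CFC over whole libraries. Beside 8.81% of all pairs lower and 12.3% higher, HSP90 co-chaperones were lower in 11 and higher in 1 of 62 pairs, 5 of them lower in oligodendrocytes, and exchange factors were higher in 9 and lower in 3 of 41. TRiC subunits were lower in 1 and higher in 0 of 43, and folding genes of the endoplasmic reticulum higher in 11 and lower in 7 of 70. The part of these in the members' values was not tested.

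Cells of CFC-14d and nuclei of WT-CFC, both from wild-type mice 14 days after conditioning, held the inducible members at very different levels. Tissue handling, kit and the RNA sampled differ between them and cannot be told apart. Microglia had Dnajb1 at 689 CPM in cells and 39.0 CPM in nuclei (19 counts), Hspa1a at 224 and 22.6 CPM (11 counts) and Hspa5 at 2007 and 335 CPM, log2 ratios of 4.11, 3.24 and 2.58. Hspb1 had 2012 counts in microglial cells and 0 in nuclei. In oligodendrocytes Hsp90aa1 was at 3144 CPM in cells and 515 CPM in nuclei and Hsp90ab1 at 3991 and 943 CPM, while Dnajb1 stood at 46.2 and 36.6 CPM. Other members went the other way, as the counts closing this paragraph show. Hsph1 was lower in cells in microglia (42.2 and 168 CPM), astrocytes (44.8 and 129 CPM) and oligodendrocytes (95.2 and 220 CPM), and Dnajc6 in astrocytes (3.82 and 58.4 CPM). Higher in cells were 32 of 57 measured members in microglia, against 42.9% of all genes, 18 of 32 in astrocytes, against 38.9%, 23 of 36 in oligodendrocytes, against 51.2%, and 14 of 17 in neuroblasts, against 55.4%.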

How the data were processed

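Droplet 3′ libraries gave a table of UMI counts per gene and barcode for each of 5 groups, 1 library a group. The deposited values are raw counts, and per the submitters' processing notes Cell Ranger 8.0.1 and Seurat 5.4.0 were used with GRCm39 (mm39); what each tool did is not given in those sources. Nothing in the labels gives replicates, so no test was run.

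Cells and nuclei were processed apart with Python 3.11.15, numpy 2.4.6, scipy 1.17.1, pandas 2.3.3, igraph 0.11.9 and matplotlib 3.10.9. Barcodes needed 500 UMIs, 300 genes and at most 20% (cells) or 5% (nuclei) mitochondrial UMIs. The 8% of barcodes of each library most like simulated doublets were removed, which left 28606 in CFC-14d, 26626 in Random-14d, 7820 in KO-CFC, 12028 in WT-CFC and 9991 in WT-naive. Counts scaled to 10000 were clustered on 2000 variable genes and 30 components, with 15 neighbours, at Leiden resolution 1; members and mitochondrial, ribosomal and haemoglobin genes were left out. A class needed 3 of its markers at 2-fold in a cluster, and its runner-up class at most 0.65 of its score, over 28 marker lists. Unnamed clusters held 19.4% of barcodes in CFC-14d, 15.4% in Random-14d, 27.0% in KO-CFC, 40.1% in WT-CFC and 18.4% in WT-naive.

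Counts were summed by class where each library had 100 barcodes and given as CPM; log2 ratios used sums plus 0.5. A member was called past 1.5-fold with 100 counts over both libraries. Intervals of 95% are conditional binomial and cover counting error only, with no share for animals or handling. Counts from transcript ends are not per length. Of the members, 16 were named throughout (the main HSP70, HSP90, HSP110 and chaperonin genes, Hspb1, Dnaja1 and Dnajb1), along with those past 1.5-fold whose interval excludes equality and those 4 times as high as in any other class. Members and gene lists were chosen with earlier results of these data known. Each comparison was repeated under 12 other settings, and under further settings chosen after seeing the data. The scripts were tested on simulated data. Not used here were 15 pseudogene symbols; 15 members have no promoter window in the table used.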

Additional observations from a re-analysis of the deposited data

Results flagged for a closer look

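Dnajb1, the DNAJ partner of inducible HSP70, had opposite directions in different cell classes of CFC-14d against Random-14d. Its log2 ratio was 0.68 in choroid plexus epithelial cells, -0.71 in border-associated macrophages, -1.09 in oligodendrocytes and -0.65 in pericytes. Within the 20 named clusters measured, Dnajb1 was above 0 in 7 and below 0 in 13, with 1 past 1.5-fold higher and 0 lower. It was at 170 CPM in CFC-14d and 111 CPM in Random-14d in the shallow choroid cluster, which holds 6117 and 212 barcodes. In the main oligodendrocyte cluster it was at 46.2 and 63.4 CPM. The falls past 1.5-fold were thus seen in whole classes and not within these clusters.

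Hspa5, the HSP70 of the endoplasmic reticulum, had opposite directions in classes of nuclei of KO-CFC against WT-CFC. The log2 ratio was 0.70 in neuroblasts, -0.66 in CA3 or CA2 pyramidal neurons and -0.65 in interneurons. The 2 interneuron clusters that both libraries fill gave -0.36 and -1.10. With 1 library a group, neither difference between classes was tested.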

How the results depend on the processing

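Changes in what is counted as a pair moved the number of calls by construction. With at least 30 counts, members higher and lower numbered 40 and 50 in CFC-14d against Random-14d, 47 and 9 in WT-CFC against WT-naive and 32 and 44 in KO-CFC against WT-CFC. With at least 300 counts they numbered 3 and 11, 15 and 0, and 6 and 13 in the same order of comparisons. At 2-fold they numbered 1 and 7, 3 and 0, and 2 and 4. Over all barcodes of a library in place of classes, chosen after seeing the data, they numbered 0 and 2, 10 and 0, and 5 and 2.

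For other settings the cause was not tested. Removing 15% of barcodes by doublet score left 9 lower in CFC-14d, gave 2 lower in WT-CFC and 23 higher in KO-CFC. Averaging shares over barcodes gave 27 higher in CFC-14d and 4 lower in WT-CFC. The stricter mitochondrial limit gave 0 lower in WT-CFC and 24 higher in KO-CFC, and turned Dnajc30 in CA3 or CA2 pyramidal neurons of KO-CFC to -0.71. Centring on the median of all genes gave 2 lower in WT-CFC. Clusters with at least 100 barcodes in both libraries, chosen after seeing the data, gave 5 higher in KO-CFC. Of the pairs called, those clusters kept 27 of 34 in CFC-14d against Random-14d, 28 of 30 in WT-CFC against WT-naive and 19 of 37 in KO-CFC against WT-CFC. With no doublet removal 18 of 34, 25 of 30 and 29 of 37 were kept, and with 15% removed 16 of 34, 24 of 30 and 28 of 37, so counts of like size can hold different pairs. The class with the highest level was kept for 37 members in CFC-14d and 34 in Random-14d when centred, of 65 each. The remaining alternatives moved none of these counts by over 1.5 times, and a lower count of 1 in WT-CFC moves that far with any change. Depth limits the small classes: Hspa1a and Hspa1b had 7 counts in oligodendrocytes of WT-naive.

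Each group has 1 library, so none was left out. No paired analysis was possible because each group has 1 library and no result comes from a test.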

Other observations

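Cryab, a small heat shock protein outside the symbol rule that is abundant in myelinating glia, stood at 9051 CPM in oligodendrocytes of CFC-14d and 9246 CPM in those of Random-14d. In nuclei of oligodendrocytes it stood at 610 CPM in KO-CFC and 370 CPM in WT-CFC. Cryab was among the leading genes of 1 oligodendrocyte cluster with 78 nuclei of KO-CFC, 8 of WT-CFC and 5 of WT-naive. The part of that cluster in the difference was not tested.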
